A study of Mus musculus with 18 samples.

Results

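The troponin family was followed through RNA-seq libraries of mouse heart ventricles at stage E14.5, across losses of Irx3 and Irx4. All 8 troponin genes of the mouse were taken by name from the 28563 genes summed, by a rule that uses none of their values: the troponin I genes Tnni1, Tnni2 and Tnni3, the troponin T genes Tnnt1, Tnnt2 and Tnnt3, and the troponin C genes Tnnc1 and Tnnc2. The family itself was chosen with earlier results of these data known. The libraries were labelled WT (wild type, 3 libraries), Irx3KO (3), Irx4KO (3), Irx3het_Irx4het (heterozygous for both genes, 3, called dHet here) and Irx3KO_Irx4KO (6, called DKO here). Irx3 and Irx4 encode homeobox transcription factors of the Iroquois family, and the study asked what they do together in the compaction of the ventricular wall. The labels name neither the strain nor the nature of the alleles. Nor do they tell whether libraries of a group came from separate embryos, so that p-values reflect the spread among libraries and this spread may be technical.

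The troponin complex sits on the thin filament of striated muscle and makes its contraction depend on calcium. Troponin C binds calcium, troponin I holds the filament off until calcium arrives, and troponin T anchors the complex to tropomyosin. Each subunit comes in forms named for the muscle where they prevail: Tnni1 and Tnnt1 are the slow skeletal forms, Tnni2, Tnnt3 and Tnnc2 the fast skeletal forms, Tnni3 and Tnnt2 the cardiac forms, and Tnnc1 serves heart and slow muscle alike. The embryonic heart is known to use Tnni1 as its main troponin I before Tnni3 takes over around and after birth. The genes lie as close pairs of a troponin I and a troponin T gene: Tnni2 with Tnnt3 on chromosome 7, Tnni1 with Tnnt2 on chromosome 1, and Tnni3 with Tnnt1 elsewhere on chromosome 7. Tnnc1 lies on chromosome 14 and Tnnc2 on chromosome 2.

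The libraries fell into 2 sets that differ technically and that the labels do not name, and the genotypes were compared within a set. The 3 WT libraries and DKO 5, 7 and 10 form set 1, and the remaining 12 libraries form set 2. Between the DKO libraries of the sets, 18.8% of the 16607 genes tested differed at an adjusted p under 0.05 (9.04% higher in set 1, 9.74% lower), with Tnni1, Tnni3, Tnnt2 and Tnnt3 among those higher. Depth ran from 26721576 to 45946741 estimated counts a library. Y-linked genes had few counts in WT 3, DKO 4 and dHet 2. Irx3 was at 2.58 to 4.33 CPM, the count scaled to library size, in the 9 libraries labelled with an Irx3 knockout and at 22.1 to 28.5 CPM in WT, while Irx4 was at 216 to 282 CPM in the 9 libraries labelled with an Irx4 knockout and at 78.7 to 126 CPM in WT. The Irx4 count therefore checks no Irx4 label, and the names Irx4KO and DKO mean the libraries that carry those labels. The ventricle label was met by high levels of its own markers, with Myl2 at 3918 to 5609 CPM and Myh7 at 6164 to 9427 CPM over the group means.

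The forms of a subunit are alike in protein but far enough apart in sequence to be counted separately, which matters because Tnni1 was far more abundant than Tnni2. The coding stretch where Tnni1 and Tnni2 shared their longest identical run is shown first, for Tnni2 (transcript Tnni2-201), Tnni1 (Tnni1-207) and Tnni3 (Tnni3-201), followed by the matching stretch of the troponin C genes (Tnnc1-202 and Tnnc2-201). Sequences are from GENCODE M21, 5′ to 3′, and capitals mark the run shared by Tnni1 and Tnni2 or by the troponin C genes, or the bases at the same place in Tnni3.
Tnni2: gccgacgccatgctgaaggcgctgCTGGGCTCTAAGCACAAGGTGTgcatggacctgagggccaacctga
Tnni1: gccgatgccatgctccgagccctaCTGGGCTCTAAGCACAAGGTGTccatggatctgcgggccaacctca
Tnni3: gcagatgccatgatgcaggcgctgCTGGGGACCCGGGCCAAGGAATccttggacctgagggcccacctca
Tnnc1: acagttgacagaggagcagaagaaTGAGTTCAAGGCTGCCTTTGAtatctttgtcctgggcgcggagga
Tnnc2: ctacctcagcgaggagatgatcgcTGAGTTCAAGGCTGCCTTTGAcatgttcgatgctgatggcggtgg
In this window of 70 bases Tnni1 had 59 bases in common with Tnni2, and Tnni3 had 53. The shared run was 22 bases long, and Tnni3 kept 13 of those bases. The troponin C run was 21 bases long in a window of 69 bases, of which 41 were the same. Over the 28 pairs of members and all their reference transcripts, the longest shared run was 22 bases or shorter for all pairs but Tnni1 with Tnnt2. There a run of 53 bases joined transcripts Tnni1-209 and Tnnt2-208. Neither of these transcripts was among those counted in the libraries.

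The heart expressed all 3 subunits at high level in their cardiac and embryonic forms, and the fast skeletal forms far below them. Levels between genes are compared in TPM, which takes transcript length into account. Tnnt2 was the highest, at 5545 to 8018 TPM over the 18 libraries, with a median of 6478. Tnni1 followed at 1932 to 2801 TPM, then Tnnc1 at 1361 to 1817 and Tnni3 at 1069 to 1551. The ranges of Tnnc1 and Tnni3 overlapped over the 18 libraries, but Tnnc1 had the higher mean in all 6 groups of set and genotype. Tnnt1 came next at 344 to 627 TPM and Tnni2 at 20.9 to 243. Tnnt3 reached only 2.51 to 7.51 TPM and Tnnc2 0 to 1.18. The order of the 8 genes by mean was the same in the 6 groups.

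**Figure D1:**
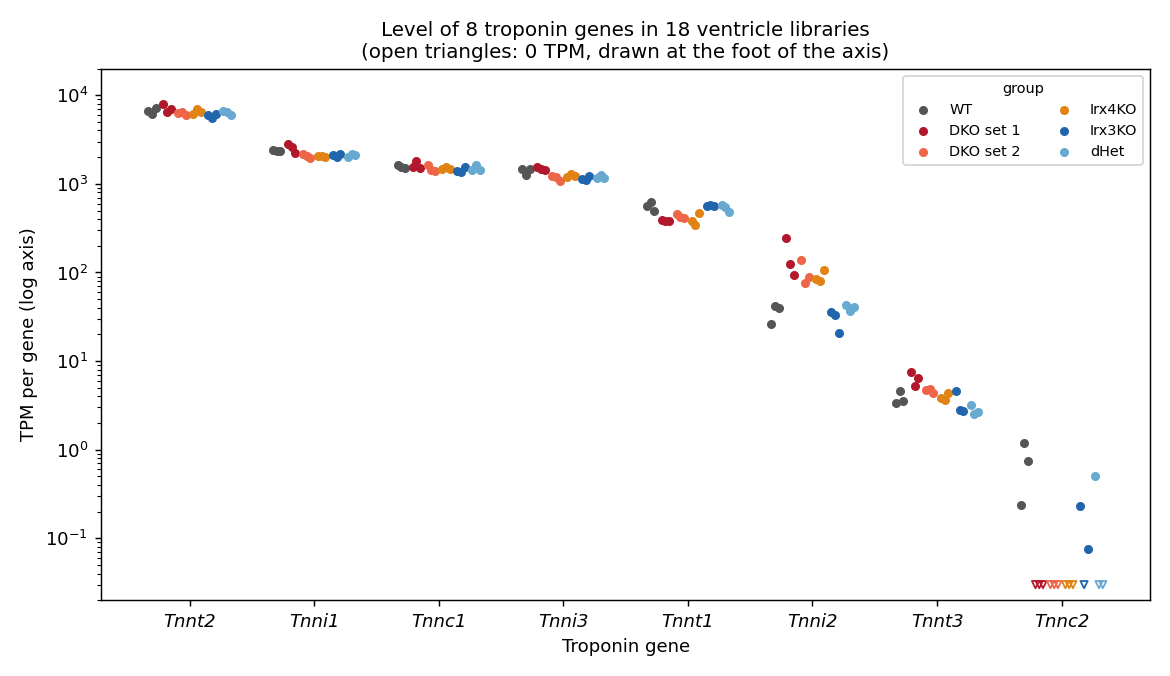
TPM of each troponin gene (log axis) in each of 18 libraries, coloured by group; open triangles at the foot of the axis stand for 0 TPM. Tnnt2, Tnni1, Tnnc1 and Tnni3 all lie at 1069 TPM or more in all libraries, and Tnni2 spans 20.9 to 243 TPM.

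Tnni1 made up most of the troponin I pool at this stage. In WT it held 62.3% ± 1.76 of the summed troponin I TPM (SD, n = 3), Tnni3 held 36.7% ± 1.88 and Tnni2 0.947% ± 0.247. In the DKO libraries of set 1 Tnni2 held 3.56% ± 1.51, with 2.49%, 2.90% and 5.29% in the 3 libraries. In set 2 its share was 3.01% ± 0.831 in DKO and 2.67% ± 0.453 in Irx4KO, against 0.917% ± 0.263 in Irx3KO and 1.22% ± 0.137 in dHet (n = 3 each). So Tnni2 remained a minor troponin I in all 18 libraries. Of the troponin T pool in WT, Tnnt2 held 92.1% ± 1.42, Tnnt1 7.86% ± 1.41 and Tnnt3 0.0537% ± 0.0129. Tnnt1 held 5.10% ± 0.449 in DKO of set 1. Troponin C was Tnnc1 almost alone, with Tnnc2 at no more than 0.0760% in any library.

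Loss of both genes was compared with wild type over the libraries of set 1, to ask which troponin forms respond. Tnni2 and Tnnt3, the fast skeletal troponin I and troponin T, rose and Tnnt1, the slow skeletal troponin T, fell, while the cardiac and embryonic forms Tnni1, Tnni3, Tnnt2 and Tnnc1 did not pass the test. Of the 8 genes, 7 passed the filter on low counts and 3 were called (2 higher, 1 lower) at an adjusted p under 0.05, when 1.44% of all 16607 genes tested were called (0.644% higher and 0.795% lower). The median log2 fold change of the 7 was 0.17, beside 0.009 for all genes tested. As tissue was sequenced in bulk, a change in the number of cells of a type and a change of RNA per cell cannot be told apart.

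Tnni2 stood at 10.3, 16.4 and 15 CPM in WT 1, 2 and 3 and at 101, 50.7 and 36.3 CPM in DKO 5, 7 and 10. All 3 DKO libraries lay above all 3 WT libraries, and DKO 5 was the highest of all 18. A full split of 3 against 3 libraries gives no less than 0.10 in an exact two-sided permutation test. The share of all genes split in this way, in set 1 or in set 2, is not given here. The log2 fold change was 2.17 ± 0.36 (SE; 4.51-fold, adjusted p = 0.011). Without DKO 5 it was 1.65 (adjusted p = 0.010), and without WT 1 it was 2.00 (adjusted p = 0.056). A fit of the 6 libraries of set 1 alone kept the size, 2.17, with an adjusted p of 0.24 and 16 genes called in all. Transcript Tnni2-201 held 90.4% ± 3.43 of the Tnni2 TPM in WT and 94.8% ± 0.654 in DKO of set 1.

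Tnnt3 stood at 1.81, 2.59 and 2.03 CPM in WT and at 4.47, 3.46 and 3.87 CPM in DKO 5, 7 and 10, again with no overlap. These levels rest on 73 to 187 estimated counts a library. The log2 fold change was 0.88 ± 0.18 (1.84-fold, adjusted p = 0.018). The call was lost when WT 1 (adjusted p = 0.10) or WT 3 (0.077) was left out, with counts rebuilt from TPM (0.084), in a fit of set 1 alone (0.24) and with no set term (0.58 on the log2 scale, 0.34). Its reads were divided over many transcripts, the largest mean shares of any in WT being 27.0% and 25.7%. Tnnt3 overlaps Prr33 on the opposite strand, which stood at 4.25 to 7.21 CPM, and since the strand setting of the counting was not given, reads of this overlap are uncertain.

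Tnnt1 stood at 300, 329 and 257 CPM in WT and at 217, 206 and 198 CPM in DKO 5, 7 and 10, all 3 below the lowest WT library. It fell by 0.51 ± 0.11 on the log2 scale (adjusted p = 0.028). This call was the least firm of the 3: it was lost on leaving out WT 1 (adjusted p = 0.11), WT 2 (0.10), DKO 7 (0.085) or DKO 10 (0.055), by limma-voom (0.12) and with set 1 alone (0.15).

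The cardiac and embryonic forms did not pass the test. Tnnt2, the cardiac troponin T, was at 4513, 4052 and 4633 CPM in WT and 5688, 4631 and 4604 CPM in DKO 5, 7 and 10 (log2 fold change 0.18 ± 0.089, adjusted p = 0.39). Tnni1 was at 0.17 ± 0.091 (adjusted p = 0.42), Tnni3 at 0.17 ± 0.093 (adjusted p = 0.43) and Tnnc1 at 0.16 ± 0.10 (adjusted p = 0.54), and their WT and DKO libraries overlapped. Without DKO 10 Tnni1 was called, at 0.29, with an adjusted p just under 0.05. Tnnc1 overlaps Nisch on the opposite strand, at 617 to 831 CPM, so its count carries the same uncertainty of strand. Tnni3 overlaps Dnaaf3 on its own strand, which had at most 2.31 CPM.

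Tnnc2, the fast skeletal troponin C, was close to absent from all libraries. It had 3.6, 5.0 and 4.3 estimated counts in WT and 0 in each of DKO 5, 7 and 10, where a count of 0 allows up to 3 counts, or 0.0703 to 0.0817 CPM. In set 2 it had 2.0 counts in dHet 2, 3.0 in Irx3KO 1, 1.0 in Irx3KO 4 and 0 in the other 9 libraries. All 9 libraries labelled with an Irx4 knockout were thus at 0. The gene failed the filter on low counts and was not tested. It overlaps Ube2c on the opposite strand, at 92.1 to 161 CPM, so even these few counts are uncertain.

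**Figure D2:**
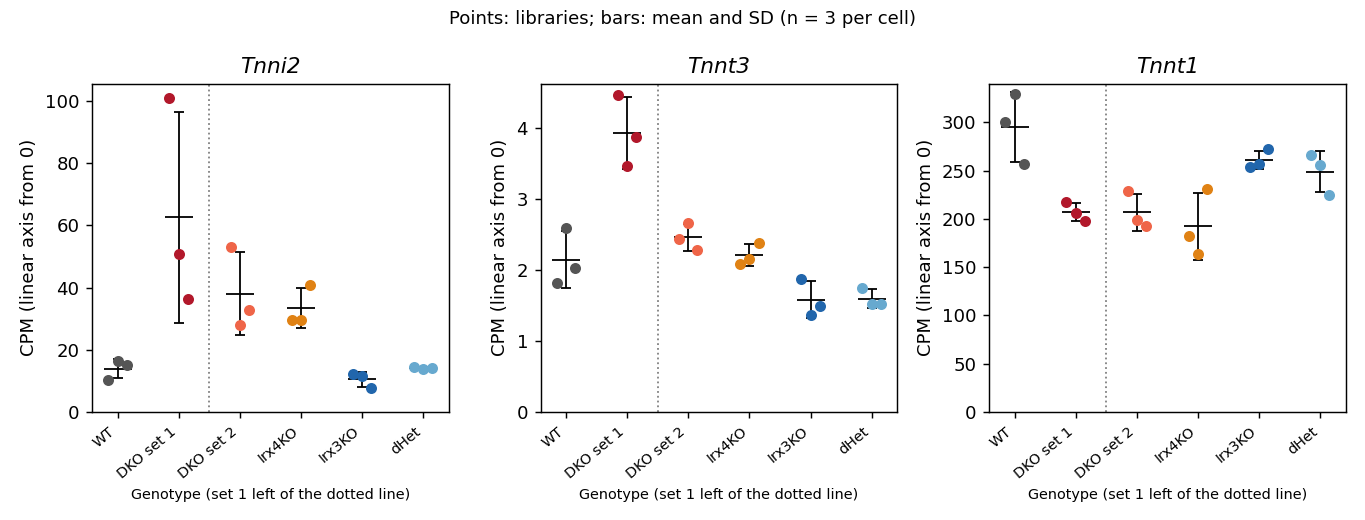
CPM of Tnni2, Tnnt3 and Tnnt1 (linear axes from 0) in each library by group, with the mean and SD of 3 libraries; set 1 is left of the dotted line. Tnni2 runs from 7.68 to 16.4 CPM in WT, Irx3KO and dHet and from 27.8 to 101 CPM in Irx4KO and DKO.

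In set 2, where WT is absent, Tnni2 followed the Irx4 label. It stood at 53.1, 27.8 and 32.9 CPM in DKO 2, 3 and 4 and at 29.7, 29.6 and 40.7 CPM in Irx4KO 2, 3 and 4. It stood at 12.3, 11.4 and 7.68 CPM in Irx3KO 1, 2 and 4 and at 14.3, 13.6 and 14.1 CPM in dHet 2, 3 and 4. The 6 libraries with an Irx4 knockout (27.8 to 53.1 CPM, median 31.3) did not overlap with the 6 that keep at least 1 copy (7.68 to 14.3 CPM, median 13.0). Their log2 difference was 1.55 ± 0.25 (2.93-fold, adjusted p = 0.011), in a comparison that called 0.813% of genes (0.403% higher, 0.409% lower). The call held in all 21 alternatives run on it, at log2 differences of 1.39 to 1.66. Split by Irx3 instead, DKO and Irx3KO against Irx4KO and dHet, Tnni2 differed by -0.12 ± 0.25 (adjusted p = 0.95). By edgeR no member was called in that split, with 0 at an unadjusted p under 0.05, and DESeq2 and limma-voom called 0 as well. The comparison called 0.0241% of all genes, with 1228 of 16607 at an unadjusted p under 0.05.

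The other members took the same directions in set 2 with smaller differences. Tnnt3 was at 2.09 to 2.66 CPM (median 2.33) in the 6 libraries with an Irx4 knockout and at 1.37 to 1.87 CPM (median 1.52) in the other 6, with no overlap. Its log2 difference of 0.55 ± 0.13 missed the threshold by edgeR (adjusted p = 0.057) and passed by DESeq2 (0.019), by limma-voom (0.033) and in a fit of set 2 alone (0.042). Tnnt1 was at 164 to 231 CPM (median 196) against 225 to 272 CPM (median 256), where Irx4KO 4 (231) and DKO 2 (229) lay above dHet 4 (225). It fell by 0.35 ± 0.080 on the log2 scale (adjusted p = 0.045) and lost the call in 11 of 21 alternatives, among them limma-voom (adjusted p = 0.053) and the removal of any of 9 libraries: dHet 2, dHet 3, DKO 3, DKO 4, each Irx3KO library, Irx4KO 2 or Irx4KO 3 (adjusted p from 0.090 to 0.12). Tnni1, Tnni3, Tnnt2 and Tnnc1 differed by 0.05, 0.11, 0.12 and 0.12 (adjusted p from 0.55 to 0.88).

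Pairs of genotypes gave fewer calls with 3 libraries a side. Tnni2 was higher in DKO than in Irx3KO by 1.86 ± 0.36 (adjusted p = 0.046), in a comparison that called 0.379% of genes (0.163% higher, 0.217% lower). That call was lost without any single library of the 6 (adjusted p from 0.053 to 0.24). Against dHet, Tnni2 in DKO was at 1.44 ± 0.35 (adjusted p = 0.16) and in Irx4KO at 1.25 ± 0.35 (adjusted p = 0.57), and no member was called by edgeR (3 at an unadjusted p under 0.05 in each, when 0.0903% and 0.0120% of all genes were called, those of the first split into 0.0361% higher and 0.0542% lower). DESeq2 called Tnni2 in the first of these (183 genes in all) and no member in the second (32), and limma-voom called none in either. Irx3KO against Irx4KO gave -1.67 ± 0.36 for Tnni2 (adjusted p = 0.077), with 0 members called by edgeR and 4 at an unadjusted p under 0.05 (0.289% of genes called). There DESeq2 called Tnni2 and Tnnt1 among 214 genes in all, and limma-voom called Tnni2, Tnnt1 and Tnnt2 among 738, of 16607 tested. Of the 16607 genes, edgeR put 1629 at an unadjusted p under 0.05 in DKO against dHet. The same count was 931 in Irx4KO against dHet and 1432 in Irx3KO against Irx4KO.

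No member was called between DKO and Irx4KO or between Irx3KO and dHet. Tnni2 was at 0.19 ± 0.34 between DKO and Irx4KO (adjusted p = 0.98) and at -0.42 ± 0.36 between Irx3KO and dHet (adjusted p = 1.0). In both comparisons edgeR, DESeq2 and limma-voom found 0, with 0 at an unadjusted p under 0.05 by each tool (0.0241% and 0.00602% of all genes called by edgeR). Of all 16607 genes, edgeR put 960 and 728 at an unadjusted p under 0.05.

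**Figure D3:**
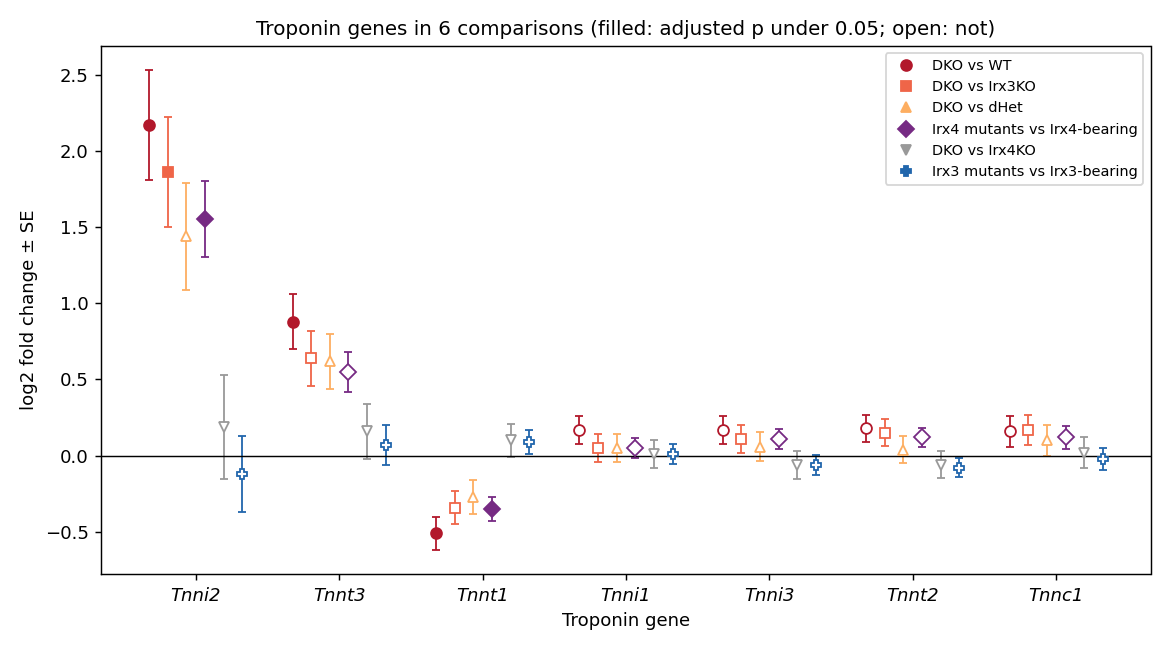
Log2 fold change ± SE of the 7 troponin genes tested, in 6 comparisons; filled symbols have an adjusted p under 0.05. Tnni2 lies between 1.44 and 2.17 in the 4 comparisons drawn of Irx4-mutant with Irx4-bearing libraries, and Tnni1, Tnni3, Tnnt2 and Tnnc1 lie within 0.18 of 0 in the comparisons drawn.

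Whether the fast forms rose together or singly was tested on the difference between them in each library, in log2(CPM + 0.5). In set 2 the gap of Tnni2 over Tnnt3 was 3.64 ± 0.35 in the 6 libraries with an Irx4 knockout and 2.59 ± 0.30 in the other 6 (SD). It differed by 1.05 (exact permutation test, two-sided p = 0.0022, adjusted p = 0.0043 over 4 tests, the smallest p this design allows). In set 1 the gap was 3.71 ± 0.64 in DKO and 2.43 ± 0.20 in WT and differed by 1.28 (exact p = 0.10, the smallest that 3 against 3 libraries can give). Tnni2 and Tnnt3 were thus higher in the same libraries, Tnni2 by more. The other 2 of the 4 tests set Tnni2 against Tnnc2 and say nothing of Tnnc2, whose level lay under the 0.5 CPM added in every library. Whether Tnnc2 moved with the other fast forms could not be tested at these counts.

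Tnni2 and Tnnt3 split the libraries in the same way. After the mean of each set was taken off, their log2(CPM + 0.5) values had a Pearson r of 0.91 over 18 libraries, given as a description because these libraries share genotype and depth. Tnnt3 ranked 3 of 12866 genes in likeness to Tnni2, and Tnni2 ranked 1 in likeness to Tnnt3. All 9 libraries with an Irx4 knockout lay above their set mean in both genes, and the other 9 lay below it in both. The share of all genes that split the libraries in this way is not given here. Within a group their orders could differ: DKO 2 had more Tnni2 than DKO 3 (1.354 and 0.431 over the set mean) and less Tnnt3 (0.278 and 0.382). Tnnt1 ran the other way, at r = -0.70 with Tnni2. The genes most like Tnni2 were Arl6ip5 (r = 0.92), Igfbpl1 (0.92), Tnnt3 (0.91), Popdc2 (0.90) and Sgce (0.90). Popdc2 encodes a membrane protein of striated muscle that binds cyclic AMP. Those most like Tnnt3 were Tnni2 (0.91), Mycbpap (0.91), Igfbpl1 (0.89), Tbcel (0.88) and Sfrp1 (0.87). For Tnnc2, at 5 counts or fewer in every library, the most like were Ly86 (0.84), Tiam2 (0.84), Hpcal4 (0.81), Fam69c (0.80) and Itgam (0.79).

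**Figure D4:**
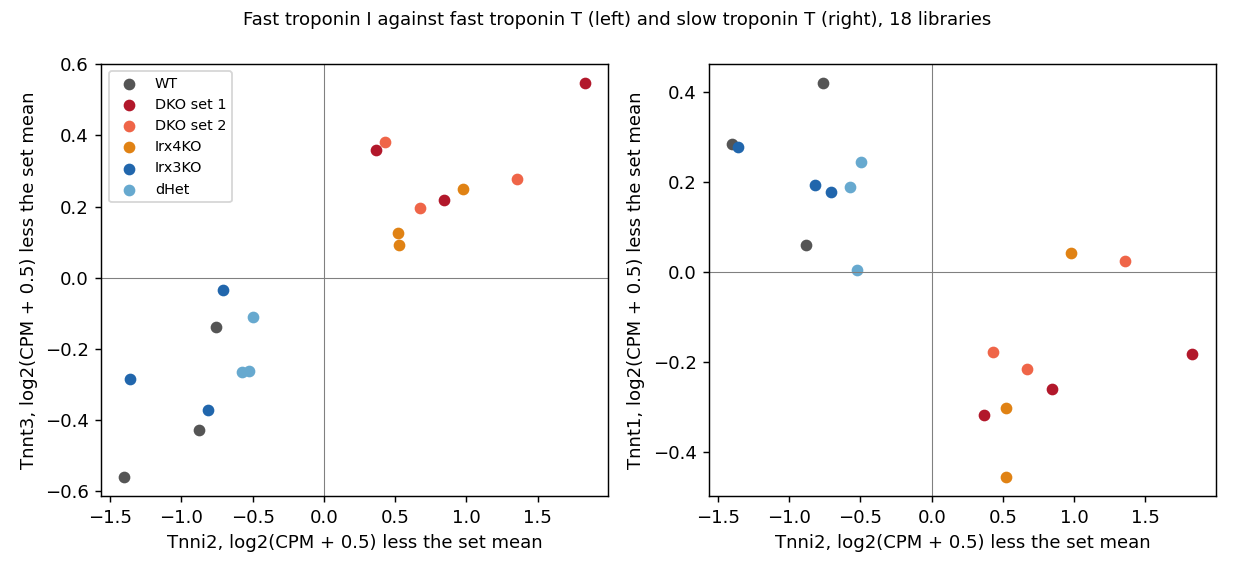
Tnni2 (x) against Tnnt3 (left) and Tnnt1 (right) in 18 libraries, each as log2(CPM + 0.5) less the mean of the library's set. Irx4KO and DKO libraries lie at the upper right in the left panel (r = 0.91), and the right panel slopes down (r = -0.70).

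None of the genes next to Tnni2 and Tnnt3 was called. Of all 16607 genes tested, 2287 were at an unadjusted p under 0.05 in DKO against WT and 1768 by the Irx4 label. Of 7 protein-coding neighbours 5 were tested, and edgeR called 0 in DKO against WT (1 at an unadjusted p under 0.05, log2 fold changes from -0.51 to 0.17), among them Lsp1, which lies between the pair, at 0.15 (adjusted p = 0.49), and the growth factor gene Igf2 at 0.17 (adjusted p = 0.26). By the Irx4 label in set 2, edgeR called 0 of the 5 as well (2 at an unadjusted p under 0.05, -0.85 to 0.23). There Lsp1 was at 0.23 (adjusted p = 0.098) and Igf2 at 0.18 (adjusted p = 0.10). Of the 6 neighbours of Tnnt1 and Tnni3 that were tested, edgeR called 0 in DKO against WT (0 at an unadjusted p under 0.05, -0.25 to 0.26). By the Irx4 label it called 0 of these 6 (1 at an unadjusted p under 0.05, -0.2 to 0.75). Around all 8 genes 29 neighbours were tested and 1 was called in DKO against WT, Phlda3 near Tnni1 and Tnnt2, higher by 0.42 (adjusted p = 0.029). In set 2, by the Irx4 label, 1 was called, Nav1 in the same place, lower by 0.26 on the log2 scale (adjusted p = 0.034). Both were named after their values were seen.

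Upstream sequence was at hand for 6 of the 8 genes, from RefSeq on GRCm38.p6, and not for Tnni2 or Tnnt3. It is shown for Tnnt1, the member with both an upstream sequence and a called change, as the 250 bases before its start, on the minus strand of chr7:4515976-4516225.
Tnnt1: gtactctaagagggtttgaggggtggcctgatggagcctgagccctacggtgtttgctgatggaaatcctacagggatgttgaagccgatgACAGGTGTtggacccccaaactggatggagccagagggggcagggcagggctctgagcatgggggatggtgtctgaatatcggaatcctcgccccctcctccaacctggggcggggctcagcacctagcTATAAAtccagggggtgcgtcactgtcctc
Capitals mark a match to ACANNTGT, the site that Iroquois proteins are known to bind, and a TATAAA box. Both strands were searched. ACANNTGT occurred in 6.31% of 32851 promoter windows of this length, TATAAA in 12.4% and the MEF2 consensus in 0.508%. The windows of Tnni1, Tnni3, Tnnt2, Tnnc1 and Tnnc2 held none of the 3. A match is a string of letters and not a measured site.

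The rest of the muscle programme was taken from lists to see which genes moved beside the troponins in DKO against WT. None of the 14 tested of 16 fast skeletal muscle genes was called by edgeR (2 at an unadjusted p under 0.05, 0 called by DESeq2 or limma-voom). Their median was 0.05. Over all 16607 genes tested, 2287 were at an unadjusted p under 0.05 in this comparison. Myl1, a fast myosin light chain, was at 18 ± 5.97 CPM in WT and 11.8 ± 3.30 in DKO (-0.61 ± 0.27, adjusted p = 0.32), and Pvalb, the calcium buffer parvalbumin, was at no more than 0.48 CPM in any library (1.48, adjusted p = 0.32). In set 2, by the Irx4 label, edgeR called 0 of the 14 (2 at an unadjusted p under 0.05, as were 1768 of all 16607). DESeq2 and limma-voom each called 1 lower there. The fast forms Tnni2 and Tnnt3 thus rose without a called rise in any other gene of this list.

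Markers of skeletal muscle tissue were low, other than desmin (Des), which heart muscle shares, and none was called. Myod1, Myf5, Myf6 and Pax7, which specify skeletal muscle, had group means of at most 0.068 CPM, and Myh2 and Myh4, fast myosins of adult muscle, of at most 0.00915 CPM. Others were detected at low level: the adult fast myosin Myh1 had group means of 0.362 to 0.889 CPM, the embryonic myosin Myh3 of 0.389 to 1.46, the perinatal myosin Myh8 of 1.87 to 3.78 and the myogenic factor Myog of 0.623 to 1.01. Of these 4, named after their values were seen, the DKO mean of set 1 lay below the WT mean in each. Other listed markers leaned the other way. The tested lineage markers had a median log2 fold change of 0.16, beside 0.009 for all genes tested. Of 12 lineage markers 7 were tested and 0 were called by edgeR (2 at an unadjusted p under 0.05, 0 by DESeq2 or limma-voom), with the acetylcholine receptor subunit Chrng at 2.76 ± 0.294 CPM in WT and 4.02 ± 1.47 in DKO (adjusted p = 0.50). Des was at 0.16 and the calcium channel Cacna1s at 0.61 (adjusted p = 0.34 each). The summed level of the list, which is nearly all desmin, was 637 to 730 CPM in WT and 703 to 822 in DKO of set 1.

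Some atrial markers were higher in DKO than in WT, as Tnni2 was. Of 10 listed, 4 rose in DKO against WT, and none fell; leaving out WT 1 left 1 and WT 3 left 2, and a fit of set 1 alone or with no set term left 0. Stard10 was higher by 1.16 ± 0.18 (adjusted p = 0.0040), the atrial light chain Myl7 by 0.94 ± 0.16 (0.0091), the atrial light chain Myl4 by 0.43 ± 0.082 (0.016) and Mybphl by 1.32 ± 0.26 (0.019). The list summed to 2652 to 3470 CPM in WT and 3973 to 4487 in DKO of set 1. In set 2, by the Irx4 label, 1 of the 10 rose by edgeR (Stard10, by 0.67 ± 0.13, adjusted p = 0.020), 4 by DESeq2 and 3 by limma-voom. There the list summed to 3188 to 3379 in DKO, 2614 to 2836 in Irx4KO, 2526 to 2593 in Irx3KO and 2126 to 2821 in dHet. None of the 10 was at 0, and the lowest group mean of any was 2.56 ± 1.56 CPM, of Sln in WT, an inhibitor of the calcium pump in atrial muscle. Their part in the troponin result was not tested.

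Partners on the thin filament were not called by edgeR. Of 12 (tropomyosins, actins, nebulins, tropomodulins and leiomodins) 0 passed, with 6 at an unadjusted p under 0.05, beside 2287 of all 16607 genes. DESeq2 called 3 of the 12 higher and limma-voom 1. Acta1, the skeletal alpha-actin, was at 66.1 ± 6.63 CPM in WT and 165 ± 52.5 in DKO (1.32 ± 0.33, adjusted p = 0.072), and Tpm1, the main tropomyosin here, was at 0.31 (adjusted p = 0.12). Of 8 slow skeletal genes 0 passed by edgeR or limma-voom and 1 rose by DESeq2 (2 at an unadjusted p under 0.05 by edgeR), with Mybpc1 at 0.89 ± 0.30 (adjusted p = 0.18) and Myl2 at 0.18 (adjusted p = 0.26). Of 10 cardiac muscle markers, Myh6 rose by 0.65 ± 0.12 (adjusted p = 0.012) and Pln, the inhibitor of the calcium pump, fell by 0.43 ± 0.070 (adjusted p = 0.0049). Of 8 other calcium-binding proteins, the light chain Myl9 rose by 0.51 ± 0.11 (adjusted p = 0.030), and Hrc, of the sarcoplasmic reticulum, was at -0.17 (adjusted p = 0.21). Of 8 smooth muscle markers 0 passed by edgeR, DESeq2 or limma-voom (3 at an unadjusted p under 0.05 by edgeR), with Cnn1 at 0.36 (adjusted p = 0.17) and Myh11 at no more than 2.44 CPM in any library.

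Among 18 regulators of muscle genes, 2 rose in DKO against WT: the cardiac T-box factor Tbx5 by 0.43 ± 0.079 (adjusted p = 0.012) and the zinc-finger factor Gata6 by 0.23 ± 0.053 (adjusted p = 0.044). In set 2, by the Irx4 label, Gata6 rose by 0.19 ± 0.038 (adjusted p = 0.021) and Mef2c, a MADS-box factor of muscle genes, fell by 0.35 ± 0.068 (adjusted p = 0.021), with 16 of 18 not passing.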

How the data were processed

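PolyA RNA of 18 ventricle libraries was analysed from the kallisto tables that the authors deposited. Per the file headers, these give estimated counts and TPM for each transcript, with its length. Version 0.42.2 of kallisto and the mm9 build are named in the submitters' processing notes, and neither the transcript release nor the strand setting was given in the sources used here. Of 88943 transcripts, 78030 (87.73%) matched GENCODE M21 by identifier, and the rest held 6.42% to 6.77% of a library's counts. Estimated counts were summed over 28563 genes and rounded. TPM, as deposited by the authors, was summed per gene for levels between genes.

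The test of each gene was that of edgeR 4.0.16, run in R 4.3.3 (quasi-likelihood F test, robust, TMM, filterByExpr), all 18 libraries in 1 fit with 6 groups of set and genotype, and Benjamini-Hochberg adjustment over 16607 genes at 0.05. The SE is the log2 fold change divided by the square root of F. CPM uses TMM factors. The 4 exact permutation tests were adjusted together. The scripts were tested on simulated data. DESeq2 1.42.0 and limma 3.58.1 (voom) were alternatives, with other scalings, filters and single libraries left out. No pair of libraries of a group was alike within sampling noise (smallest chi-square per gene 6.31). Intervals for a count of 0 (3 counts) cover counting error only.

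In set 2 the 15 pairs of libraries with the same replicate number had correlated deviations of -0.19 to 0.0819. This gave no sign over all genes that the numbers pair libraries, but it cannot show that they do not. Named genes were all 8 members, from each list the called genes in DKO against WT (up to 4 by p, or the 2 with the smallest p where fewer than 2 passed), called neighbours of a called member, and the 5 genes most like each fast form among those with a mean of at least 1 CPM. Further names were added after their values were seen: Myod1, Myf5, Myf6, Pax7, Myh1, Myh2, Myh3, Myh4, Myh8, Myog, Chrng, Sln, Mef2c, Lsp1, Igf2, Phlda3, Nav1 and the ventricle markers. The members and the lists were chosen with earlier results of these data known.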

Additional observations from a re-analysis of the deposited data

Results flagged for a closer look

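Tnni2 was at 101 CPM in DKO 5 and at 27.8 to 53.1 CPM in the other 5 DKO libraries. The gap to its nearest neighbour was 0.654 of the range of the 6 libraries, above the value of 0.625 that Dixon's test sets for 6 samples, which chance exceeds in about 1 of 20 groups. No other tested troponin gene had such a library among the DKO libraries. The 6 libraries come from both sets.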

How the results depend on the processing

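Among 72 combinations of a member and a comparison (9 of them of Tnnc2, which entered only without the filter on low counts), 14 were called under at least 1 setting and 58 under none. The 3 members called in DKO against WT became 0 in a fit of set 1 alone and 0 to 3 with single libraries left out; WT 1 was the library without which none passed. The 1 call in DKO against Irx3KO became 0 without a filter on low counts, with a covariate for embryo sex and with the replicate block, 2 with no set term, and 0 with any single library left out. DKO against dHet gave 1 with DESeq2, 1 with set 2 alone and 2 with no set term, in place of 0. Irx3KO against Irx4KO gave 2 with DESeq2, 3 with limma-voom, 1 with set 2 alone and 0 to 1 with single libraries left out. The 2 calls by the Irx4 label became 1 with the replicate block, when Tnnt1 had an adjusted p of 0.19, 1 to 2 with single libraries left out, and 3 with DESeq2 and with set 2 alone, where Tnnt3 was called too. Beyond the losses against Irx3KO and by the Irx4 label, the block made no change to the members called in set 2. No paired analysis was possible because WT and DKO of set 1 share no replicate numbers. Tnni1 in DKO against WT reversed to -0.02 with no set term and was called, at 0.29, without DKO 10. Counts not scaled for length gave shares in WT of 29.6% for Tnni3, 0.653% for Tnni2 and 6.33% for Tnnt1. The cause of these changes was not tested.

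Counts of all genes called also moved with the setting. In DKO against WT, 239 genes became 608 by DESeq2, 155 by limma-voom, 16 with set 1 alone, 105 with no set term, and 67 to 576 with single libraries left out (67 for WT 1, 124 for WT 3, 576 for DKO 5, 527 for DKO 10). By the Irx4 label, 135 became 350 by DESeq2, 437 by limma-voom and 348 with set 2 alone, and 56 to 109 with single libraries left out. In DKO against Irx3KO, 63 became 199 by DESeq2, 253 by limma-voom, 179 with set 2 alone, 284 with no set term, 38 with a covariate for embryo sex and 38 with the replicate block. In DKO against dHet, 15 became 183 by DESeq2, 173 with set 2 alone and 317 with no set term. In Irx3KO against Irx4KO, 48 became 214 by DESeq2, 738 by limma-voom and 145 with set 2 alone. Tnnt3 and Tnnc2 rest on few counts, which limits what can be said of both.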
